A study of Homo sapiens with 2 samples.

Results

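PAX5 binding was examined at 4 genes that encode haematopoietic transcription factors: ERG, ETV6, RUNX1 and ETS1. A called PAX5 peak was counted to a gene when its summit fell in the gene's hg19 window, given to 1 kb, or in the 10 kb on either side. This took in 40 of the 21361 peaks of the deposited list, with 13 at ERG, 8 at ETV6, 13 at RUNX1 and 6 at ETS1. The windows were chromosome 21 from 39.740 to 40.033 Mb for ERG and chromosome 12 from 11.803 to 12.048 Mb for ETV6. They were chromosome 21 from 36.160 to 36.421 Mb for RUNX1 and chromosome 11 from 128.329 to 128.457 Mb for ETS1. ETV6 is transcribed from the plus strand and the other 3 genes from the minus strand.

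The peaks come from chromatin immunoprecipitation and sequencing (ChIP-seq), which recovers and counts the DNA fragments bound by a protein, in the human leukaemia cell line NALM6, a model of B-cell precursor leukaemia. An Abcam antibody to PAX5 was used for the ChIP sample, and the control sample is input chromatin labelled as taken without antibody. Cells of both samples are labelled as untreated and grown for 4 days in RPMI without phenol red, with 10% fetal serum and 2 mM glutamine. With 1 ChIP sample of 46190180 tags and 1 control sample of 25416858 tags, there are no replicates, and no test between samples was made. The title of this control includes an unexplained name, RXL, and all folds below are relative to it.

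PAX5 binds DNA through a paired domain and is the factor that commits progenitors to the B-cell lineage and holds them there. ERG, ETV6 and ETS1 belong to the ETS family, whose members bind DNA at a GGAA core. RUNX1 binds through its Runt domain together with CBFB and is needed for the first blood stem cells. ETV6 and RUNX1 are recurrent fusion partners in leukaemia, and the ETV6::RUNX1 fusion is the most common fusion of childhood B-cell precursor leukaemia. ETS1 is a regulator of lymphocyte development that lies beside its relative FLI1, as ERG lies beside ETS2. NALM6 is known to carry a DUX4 rearrangement, a lesion that deregulates ERG in leukaemia, and neither it nor any other alteration of these loci was examined here.

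Starts of transcription are shown first, for comparison with the distances of the peaks along the genes. RefSeq promoter entries on GRCh38.p14 were found for 3 of the 4 genes (all but ETS1). No hg19 sequence was used, and positions were not moved between builds. Only distances within a gene were set side by side, each in its own build. An inner ERG entry starts 163.28 kb after the outer edge of the RefSeq gene, and a PAX5 peak covers 162.11 to 162.63 kb after the hg19 window's start. It was chosen for print because a peak lay near that distance. Another inner ERG entry, at 76.84 kb, had no such peak, and one at 163.31 kb largely overlaps the printed entry. The RUNX1 entry, which starts inside the gene, lies 160.60 kb after the RefSeq edge, and the nearest PAX5 peak covers 159.99 to 160.84 kb. The ETV6 entry starts at the RefSeq edge, and the nearest peak ends 0.445 kb before the start of the window. Windows are rounded to 1 kb, and the gene borders can differ by more, as RefSeq ERG spans 294.5 kb and its hg19 window 293 kb. The close pairs of distances could therefore not be told apart for RUNX1, ERG or ETV6, and no peak is assigned to a start from them. The outermost ERG entry is shown for contrast, because no summit lay in the first 162 kb of the hg19 window. Each line gives the 250 bases before the start, 5′ to 3′ on the gene's strand, with GGAA on either strand in capitals.
ERG inner, chr21:38498505-38498754, GRCh38.p14, minus strand: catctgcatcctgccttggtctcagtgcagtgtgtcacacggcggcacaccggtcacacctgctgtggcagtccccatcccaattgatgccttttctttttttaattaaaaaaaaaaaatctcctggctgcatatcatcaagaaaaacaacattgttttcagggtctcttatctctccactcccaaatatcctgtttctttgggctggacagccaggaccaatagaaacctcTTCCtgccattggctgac
ERG outermost, chr21:38660668-38660917, GRCh38.p14, minus strand: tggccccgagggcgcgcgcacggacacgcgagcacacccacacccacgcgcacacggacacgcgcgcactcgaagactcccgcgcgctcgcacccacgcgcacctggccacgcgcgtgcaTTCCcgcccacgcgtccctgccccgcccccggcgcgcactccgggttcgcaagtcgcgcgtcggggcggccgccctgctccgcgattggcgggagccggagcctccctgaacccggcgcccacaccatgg
RUNX1 inner, chr21:34888700-34888949, GRCh38.p14, minus strand: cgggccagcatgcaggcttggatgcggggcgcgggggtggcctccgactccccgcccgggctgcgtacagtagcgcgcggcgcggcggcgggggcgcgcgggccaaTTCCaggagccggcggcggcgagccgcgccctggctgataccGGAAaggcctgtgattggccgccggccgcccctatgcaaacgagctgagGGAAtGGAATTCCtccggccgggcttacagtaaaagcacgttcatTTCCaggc
ETV6, chr12:11649424-11649673, GRCh38.p14, plus strand: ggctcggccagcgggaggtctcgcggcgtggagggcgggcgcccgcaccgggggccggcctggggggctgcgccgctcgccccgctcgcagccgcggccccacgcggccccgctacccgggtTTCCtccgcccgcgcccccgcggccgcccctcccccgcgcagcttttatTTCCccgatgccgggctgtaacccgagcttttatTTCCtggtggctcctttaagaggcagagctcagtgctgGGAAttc

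The ETS core GGAA occurred once in each printed ERG stretch, 4 times before ETV6 and 6 times before RUNX1, counting both strands and overlaps. It occurred 2 times in the overlapping ERG entry at 163.31 kb, which is not printed. Of all 35116 RefSeq promoter entries, 92.7% hold it. Neither GCGTGAC nor GCATGAC, letters from the core of the PAX5 consensus, was found on either strand of the 4 stretches. These letters are in 2.20% and 1.43% of all entries. The RUNX core TGTGGT was not found either, and 11% of entries hold it. The G and C content was 46.4% in the inner ERG stretch, 77.2% in the outermost one, 71.2% before RUNX1 and 74.4% before ETV6, against a median of 58% over all entries.

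Peaks were denser at all 4 genes than in the rest of the list. ERG carried 41.5 peaks per Mb (exact Poisson 95% interval 22.1 to 71.0), ETV6 30.2 (13.0 to 59.5), RUNX1 46.3 (24.6 to 79.1) and ETS1 40.5 (14.9 to 88.2), against 7.25 over chromosomes 1 to 22 and X. The ratio to the rest of those chromosomes was 5.73 at ERG (exact 95% interval 3.05 to 9.80), 4.17 at ETV6 (1.80 to 8.21), 6.38 at RUNX1 (3.40 to 10.9) and 5.59 at ETS1 (2.05 to 12.2). All 4 intervals lie above 1. The genes were chosen with earlier results of these data known, so these intervals are descriptive and are no test of denser binding. The reference is the whole span of the chromosomes, unsequenced stretches included, and not other genes. Among peaks with a −log10 q of at least 10, the ratio at ETS1 was 2.51 on 1 peak, with an interval that holds 1 (0.0635 to 14). These intervals cover counting error only and take each peak as independent. Many peaks had a close neighbour, so the intervals may be too narrow.

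The immediate surroundings differed between the genes. Within 1 Mb on each side there were 29 further peaks at ERG, 21 at ETV6, 12 at RUNX1 and 15 at ETS1. Against these surroundings the density was 2.86 times higher at ERG (1.37 to 5.69), 2.88 times at ETV6 (1.10 to 6.76), 7.71 times at RUNX1 (3.24 to 18.5) and 5.41 times at ETS1 (1.72 to 14.7). The surroundings of RUNX1 held 6.0 peaks per Mb, near the 7.25 of the whole list, and those of ERG held 14.5. Upstream of ERG, on the side of ETS2, lay 23 of its 29 surrounding peaks. Upstream of ETS1, on the side of FLI1, lay 11 of 15. Among the 4 genes themselves, none of the 6 pairwise ratios of density (0.653 to 1.38) had an interval without 1.

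**Figure D1:**
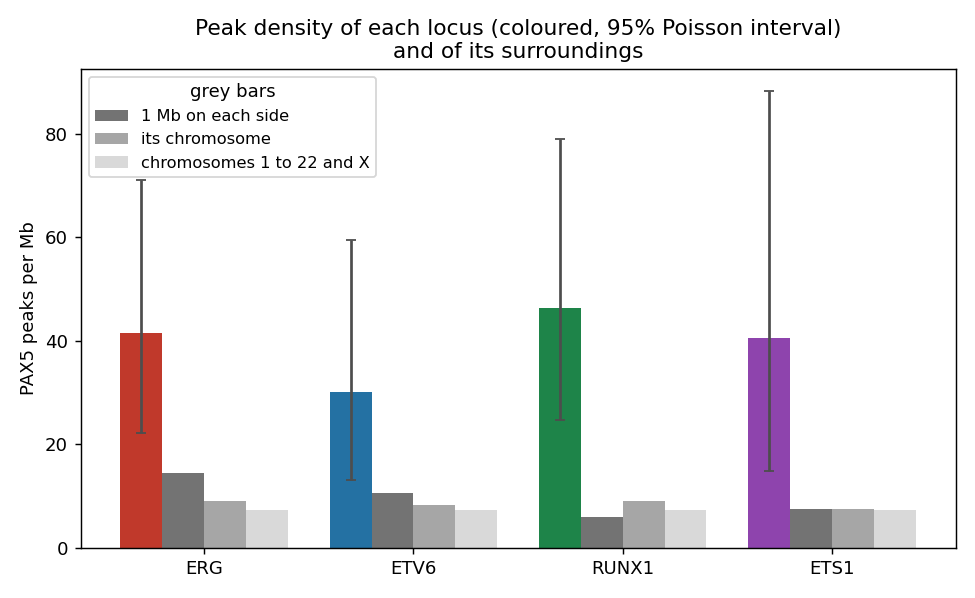
PAX5 peaks per Mb (vertical axis) at each of the 4 genes with 10 kb on either side (coloured bars, exact Poisson 95% interval) and, in grey, in the 1 Mb on each side, on its chromosome and on chromosomes 1 to 22 and X. Each coloured bar, between 30.2 and 46.3, stands above its grey bars, of which the highest is 14.5 beside ERG.

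In number of reads and in fold the 40 peaks were close to the list. Fold enrichment is the authors' ratio of the ChIP pileup to the local control background. Its median was 3.94 over the 40 peaks (exact 95% interval of the median 3.34 to 4.75) and 3.89 over all peaks. A fold of at least 5 was reached by 13 of the 40 peaks (32.5%), where 25.0% of all peaks reach it. A fold of at least 10 was reached by 2 of the 40 (5.0%), where 1.72% of all peaks do. The summits held 24 to 142 ChIP reads with a median of 66, and the median over the list was 61. Control background, the number of control reads expected at the summit, had a median of 7.94 reads at these summits and 8.0 over the list. Here and below, ChIP reads are at the depth of the ChIP sample and background is at that of the control. For the fold, reads are scaled by 0.550 and a pseudocount of 1 is added to both, so it is not the plain ratio of the 2. The 4 genes differed from the rest of the list in the density of peaks, while the interval of their median fold included the median of the list.

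**Figure D2:**
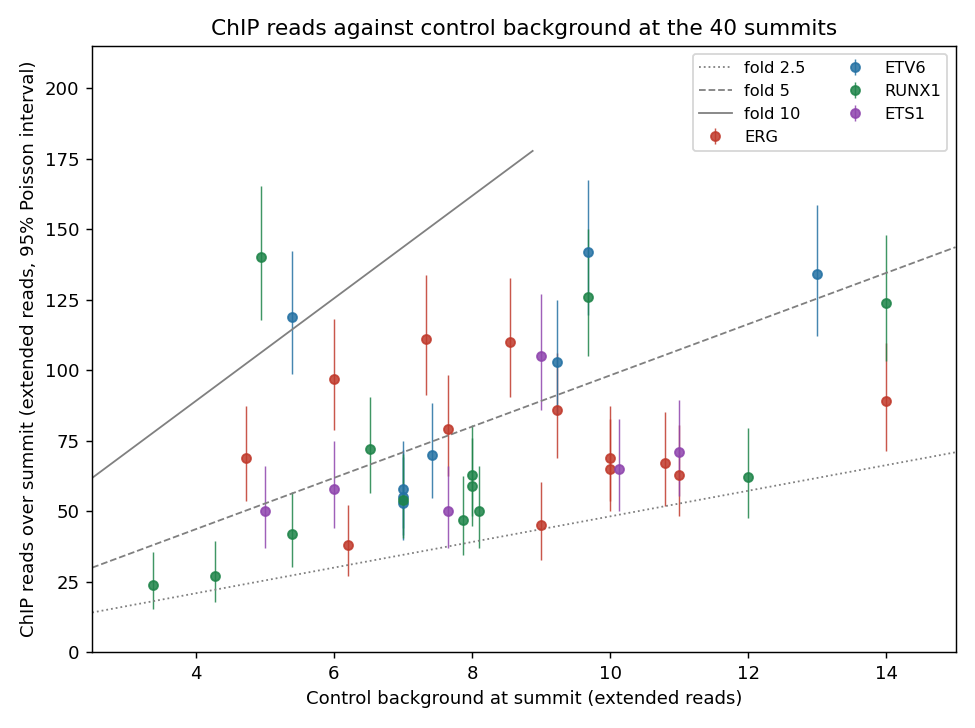
ChIP reads over the summit (vertical axis, with exact Poisson 95% intervals) against control background at the summit in extended reads (horizontal axis) for the 40 peaks, coloured by gene, with lines of equal fold at 2.5, 5 and 10. Reads are at ChIP depth and background at control depth, and the lines include the scale of 0.550. One RUNX1 and one ETV6 peak stand above the line of fold 10, and none lies below the line of 2.5.

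ERG, an ETS factor of blood stem cells and endothelium, carried all 13 of its peaks beyond the midpoint of the gene. The first 162 kb after the start, 55.4% of the gene, held no summit, and the 13 summits lay between 162 and 276 kb. The peak nearest the start, on chromosome 21 from 39870366 to 39870886, showed a fold of 3.34, from 65 ChIP reads (50.2 to 82.8, exact Poisson 95% interval here and below) against a background of 10.0. It is the peak that was set beside the inner ERG start printed above. Together with 3 more peaks it formed a run over 10.1 kb in which reads ranged only from 63 to 69 and folds from 2.97 to 3.54. This run was thus uniform, with reads a little above the median of the list, 61, and folds below its median of 3.89.

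Of the 9 ERG peaks farther along, 6 had a higher fold than any peak of this run, and the other 3 had folds between 2.58 and 3.33. The highest fold was 7.77 at the peak from 39776137 to 39776602, with 97 reads (78.7 to 118) over a background of 6.0, 257 kb after the start. The peak from 39847903 to 39848895, the widest at 993 bp, had 111 reads (91.3 to 134) over 7.34 and a fold of 7.45. Its neighbour 0.801 kb away had the lowest fold at ERG, 2.58, with 45 reads (32.8 to 60.2) over 9.0. High and low summits thus stood side by side. The lower peak ends at 39847790, close to the border of the wider one at 39847903. Whether the 2 calls are separate sites was not tested.

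A group of 3 summits between 221 and 226 kb included the peak from 39806947 to 39807645, with 69 reads over 4.73 and a fold of 6.81. It also held the peak from 39811978 to 39812462, with 110 reads over 8.55 and a fold of 6.44. Another 3 lay between 272 and 276 kb, the strongest from 39758955 to 39759681 with 79 reads over 7.65 and a fold of 5.14. The counting intervals of the 4 highest folds at ERG overlapped (from 5.31 to 9.44), so that their order was not resolved. In the fold ranking of the whole list the ERG peaks split, 7 of them above at most 38.2% of the list and 6 above at least 70.4%.

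ETV6, an ETS repressor needed for bone marrow haematopoiesis, was the gene with a peak beside the start of its window. That peak, on chromosome 12 from 11801703 to 11802555, had its summit 1.01 kb before the start of the window and was the widest at ETV6, at 853 bp. It held 134 reads (112 to 159) over a background of 13, a fold of 5.34. It was the only one of the 40 summits within 5 kb of the start of any of the 4 windows. Inner starts, such as those printed for RUNX1 and ERG, were not counted, and the share of the whole list near gene starts was not computed.

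Inside ETV6 the strongest peak lay 39.7 kb after the start, from 11842516 to 11842972. It had 119 reads (98.6 to 142) over 5.40, a fold of 10.4 that ranks 312 in the list. The highest number of reads at ETV6, 142 (120 to 167), was at the peak from 11951748 to 11952154, 149 kb after the start, where the background was 9.68 and the fold 7.41. Which of these counts as the strongest thus depended on the measure, and the intervals of their folds overlapped (8.63 to 12.4 and 6.26 to 8.72).

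The remaining ETV6 peaks were lower. That from 12008344 to 12008948 had 103 reads over 9.23 and a fold of 5.64, and that from 12047865 to 12048149, at the far end of the gene, 70 reads over 7.43 and a fold of 4.69. The lowest fold was 3.77, from 11899173 to 11899433, with 53 reads over 7.0. Every ETV6 peak had a higher fold than at least 46.2% of the list. Its median fold was 5.01 (3.77 to 10.4), with an interval that overlaps those of ERG (3.04 to 6.81), RUNX1 (3.03 to 5.40) and ETS1 (3.30 to 5.88).

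ETS1, an ETS factor of B, T and natural killer cells, carried its 6 peaks between 15.6 and 64.4 kb after its start, with 5 before the midpoint of the gene. The last 63.6 kb, 49.7% of the gene, held none. The strongest lay on chromosome 11 from 128421810 to 128422355 and reached a fold of 5.88, with 105 reads (85.9 to 127) against a background of 9.0. It was the only ETS1 peak with a fold of at least 5. It lay between a peak from 128418559 to 128418989, with 58 reads over 6.0 and a fold of 4.70, and the widest ETS1 peak, 587 bp from 128422643 to 128423229, with 71 reads over 11 and a fold of 3.34.

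The ETS1 peak nearest the start, from 128441165 to 128441449, had 50 reads (37.1 to 65.9) over 5.0 and a fold of 4.75. The peak after it, from 128433968 to 128434393, had 65 reads over 10.1 and a fold of 3.30. The last, from 128392314 to 128392791, had 50 reads over 7.65 and the lowest fold, also 3.30. ETS1 thus had the narrowest range of fold among the 4 genes, over the fewest peaks.

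RUNX1, whose distal and proximal promoters are known to give proteins with different first residues, carried the strongest of the 40 peaks. This peak, on chromosome 21 from 36237842 to 36238473, lay 183 kb after the start of the window and held 140 reads (118 to 165) over a background of 4.95. Its fold of 13.1 (11.1 to 15.4 from the counting error of the ChIP reads) was the second highest of chromosome 21 and ranks 86 in the whole list, above 99.6% of peaks. Its interval did not overlap that of any other peak at RUNX1.

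Close to the distance of the inner RUNX1 start, 4 summits lay within 1.99 kb, from 36260158 to 36262773. They held 47 to 63 reads each and folds from 3.03 to 3.96. The widest RUNX1 peak, 849 bp from 36260158 to 36261006, is the one set beside the printed RUNX1 sequence, with 54 reads (40.6 to 70.5) over 7.0 and a fold of 3.84. The strongest of the run, from 36262168 to 36262773, had 63 reads over 8.0 and a fold of 3.96. No other 4 neighbouring summits among the 40 lay within so short a span, and every one of its folds was well under that of the peak 22.3 kb farther along.

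A second RUNX1 group of 3 summits lay between 138 and 140 kb. The peak from 36282898 to 36283678 had 72 reads over 6.53 and a fold of 5.40. The peak from 36280667 to 36281197 had 124 reads (103 to 148) over 14 and a fold of 4.62, so that more reads went with a lower fold. The summit between them had the lowest fold at RUNX1, 2.70, with 62 reads over 12.

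On the side of its start RUNX1 carried single peaks. The nearest, from 36398854 to 36399566, lay 21.8 kb after the start with 126 reads (105 to 150) over 9.68 and a fold of 6.59, the second highest at the gene. The intron after the distal promoter is known from mouse studies to hold a haematopoietic enhancer, and whether this peak coincides with its human counterpart was not examined. The last 77.0 kb of RUNX1 held no summit.

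**Figure D3:**
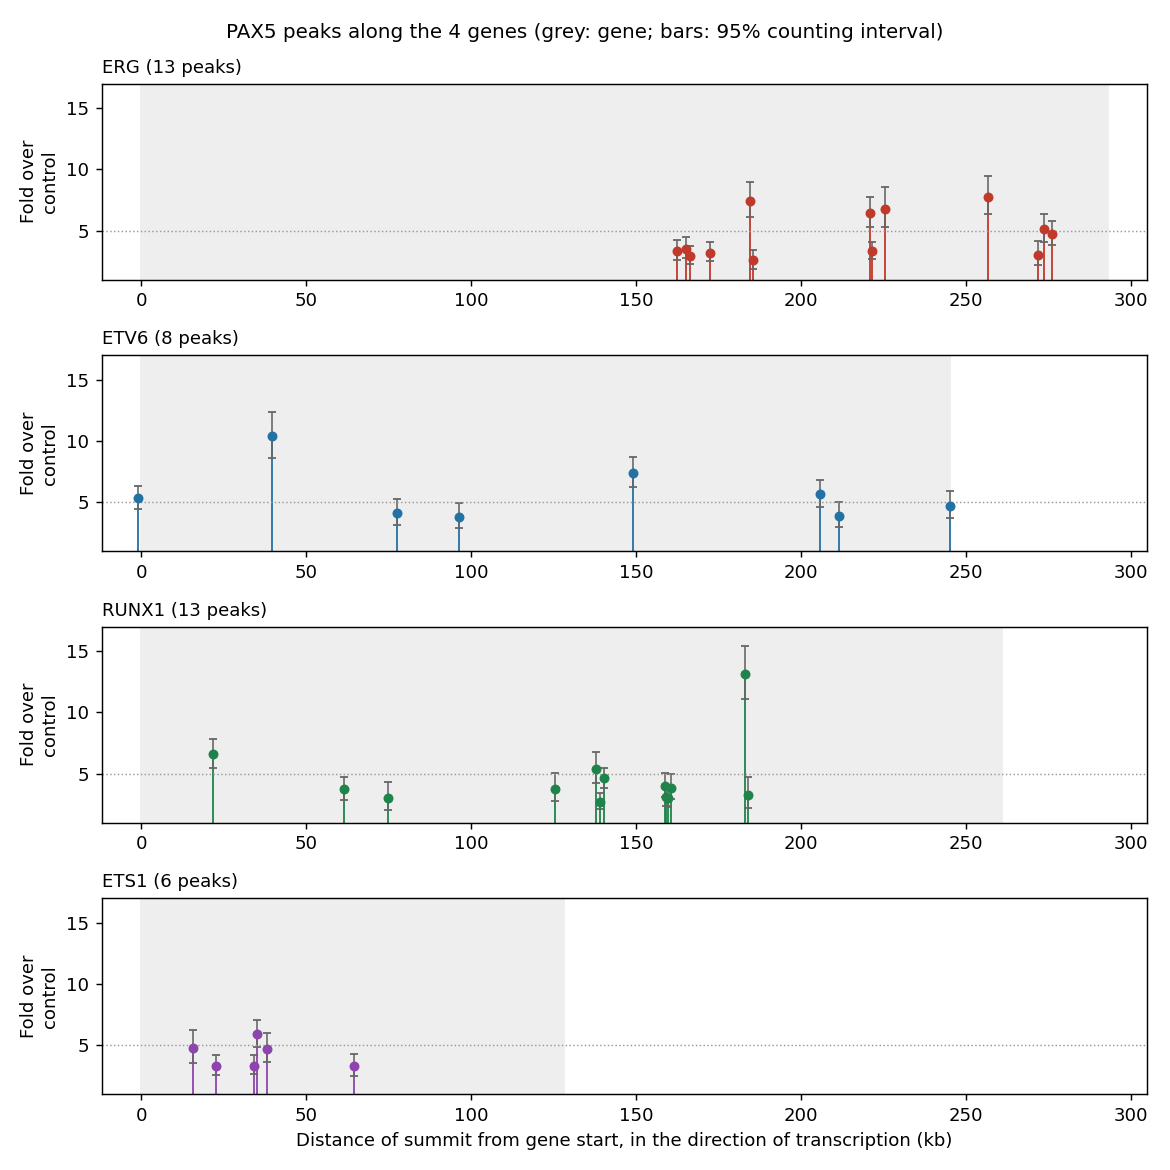
Fold over control (vertical axis) of each PAX5 summit by its distance from the gene start in the direction of transcription in kb (horizontal axis) at the 4 genes, with the gene in grey and 95% intervals from the counting error of the ChIP reads. The 13 ERG summits begin 162 kb after the start, ETV6 has a summit beside the start of its window, and the highest point is the RUNX1 peak with a fold of 13.1.

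The genes also differed in how their peaks were grouped. Another summit lay within 10 kb of 28 of the 40 peaks (70%, Wilson 95% interval 54.6 to 81.9), where 51.9% of all peaks have one. By gene this held for 12 of 13 ERG peaks, 9 of 13 RUNX1 peaks and 5 of 6 ETS1 peaks, but for 2 of 8 ETV6 peaks. Each neighbour counts for both peaks of a pair, and the 28 peaks formed only 10 groups. The Wilson interval takes peaks as independent and may be too narrow. The share was not adjusted for the higher density of peaks at these genes. The median gap between neighbouring summits was 3.41 kb at ERG, 6.79 kb at RUNX1, 7.18 kb at ETS1 and 37.6 kb at ETV6. Joining summits up to 10 kb apart gave 5 groups at ERG, 7 at RUNX1, 3 at ETS1 and 7 at ETV6. ETV6 peaks were thus mostly single and ERG peaks mostly in groups, a difference described here without a test. Some grouped peaks have close borders, as the ERG peak that ends at 39811922 and the next, which starts at 39811978. Whether such pairs are 1 bound region called as 2 peaks was not tested. Merging summits within 500 bp left all 13 ERG peaks separate.

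**Figure D4:**
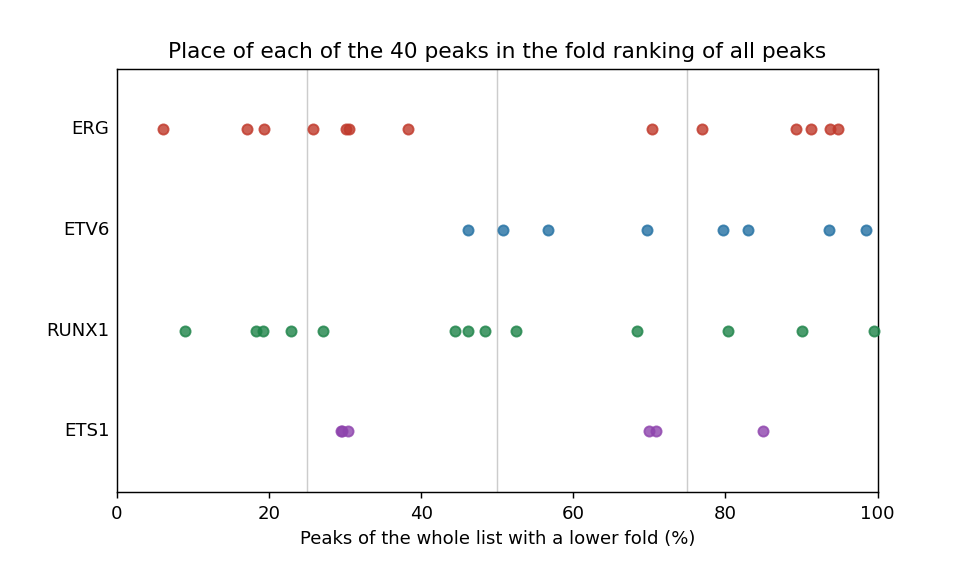
Share of all peaks in the list with a lower fold, in percent (horizontal axis), for each of the 40 peaks, in one row per gene. The ERG points leave a gap between 38.2% and 70.4%, the ETV6 points begin at 46.2%, and the rightmost point is the RUNX1 peak at 99.6%.

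All 40 peaks remained in the authors' cleaned list with identical borders. The share of all peaks that remained is not given here. The density ratio at ERG was 5.735 with the cleaned list and 5.732 with the full list. It changed as little at ETV6, RUNX1 and ETS1, so cleaning removed few peaks elsewhere. Being kept therefore does not set the 40 peaks apart from the rest of the list. Control background on the 3 chromosomes was near that of the list, with medians of 8.55 reads at the peaks of chromosomes 11 and 12 and 8.0 at those of chromosome 21. Medians by gene were 9.0 at ERG, 7.21 at ETV6, 7.87 at RUNX1 and 8.32 at ETS1. The copy number of the loci was not examined.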

How the data were processed

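PAX5 ChIP-seq and input control from NALM6 cells were used, 1 sample each. The submitters' processing notes name BWA and the hg19 build. Peaks were called by the authors with MACS2 (version 2.1.1.20160309, per the file headers) on pooled ChIP reads with a combined control. Reads of 50 bp were extended to 225 bp and the q-value threshold was 0.05. The sources used here do not say how many libraries went into the pool. The deposited pileup signal counts extended ChIP reads over the summit, scaled by 0.550 to the control's depth. The deposited fold enrichment is a ratio in which a pseudocount of 1 was added to pileup and to local background. The deposited −log10 p and −log10 q values come from the caller.

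ChIP reads were recovered by dividing pileup by the scale, which gave whole reads within 0.005 pileup units for 100% of peaks, and background from pileup and fold. Both were recovered in 100% of 21361 simulated peaks. These were built with the same formulas, so their recovery checks the arithmetic only, not whether the deposited values follow the formulas. Intervals are exact Poisson, exact binomial (medians, ratios of density) or Wilson, and cover counting error only. Fold intervals take the background as fixed. Densities of chromosomes use the span between their outermost summits. Unsequenced stretches were not removed, which lowers the densities of the list and of whole chromosomes. No model across features was fitted. Peaks named one by one are, per gene, the 5 of highest fold, any with a fold of at least 10, the nearest to the start, the lowest in fold and the widest. The genes, windows and this rule were chosen with earlier results of these data known. Exons and introns were not assigned, as no hg19 annotation was used. Alternatives for the flank, merging, threshold, reference set and ranking are given in the closing section. Values were computed in Python 3.11.15 with scipy 1.17.1, pandas 2.3.3 and numpy 2.4.6, and drawn with matplotlib 3.10.9.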

Additional observations from a re-analysis of the deposited data

How the results depend on the processing

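Of 83 values under alternative settings, 72 were classed as unchanged, and no density ratio fell below 1. Density ratios, medians and the share with a neighbour were classed as unchanged inside the reported interval. Counts were so classed within a fixed factor of the reported count, and a strongest peak when it was the same peak. Windows without flanks, merging of summits within 500 bp and the cleaned list moved no count, density ratio or median beyond these limits. Keeping only peaks with a −log10 q of at least 10 left 6 peaks at ERG, 5 at ETV6, 4 at RUNX1 and 1 at ETS1, fewer by construction. With weak peaks dropped, the median fold rose to 6.62 at ERG, 5.64 at ETV6, 5.99 at RUNX1 and 5.88 at ETS1. Only the RUNX1 value lay outside its reported interval. Against the whole list under that threshold, the density ratio was 7.01 at ETV6 (2.28 to 16.4) and 2.51 at ETS1 (0.0635 to 14), the latter with an interval that holds 1. With 50 kb on each side ETS1 had 10 peaks. Against 1 Mb on each side the density ratio of ERG was 2.86, below its interval against the whole list. The strongest ERG peak had a fold of 7.45 when ranked by −log10 q or by reads, and the strongest ETV6 peak a fold of 7.41 when ranked by reads. With neighbours counted up to 20 kb the share of peaks with one was 85%, where 64.2% of the list had one. No paired analysis was possible because there is 1 sample of each kind, so no replicate could be left out either. The depth of 1 pooled ChIP limits the order of neighbouring peaks and gives no spread between libraries.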

Other observations

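Just outside the windows, between 10 and 50 kb away, lay 4 further PAX5 peaks at ETS1 and 1 at RUNX1, with none at ERG or ETV6. At ETS1, 3 of them stood upstream of the gene start, on the side of FLI1, at 24.0, 26.7 and 37.6 kb before the start. The peak from 128480630 to 128481441 had 91 ChIP reads over a control background of 15 and a fold of 3.19. That from 128483395 to 128483849 had 67 reads over 13 and a fold of 2.70, and that from 128494194 to 128494734 had 57 reads over 12 and a fold of 2.49. All 3 stood on a higher control background than any of the 6 peaks counted to ETS1, where it ranged from 5.0 to 11 reads. The fourth, on the far side of the gene from 128307100 to 128307413, had 55 reads over 9.0 and a fold of 3.13. These peaks were chosen after their values were seen.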
